A study of Mus musculus with 2 samples.

Results

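The genes described here are the heat shock proteins and their helpers: every gene whose symbol starts with Hsp, Dnaj, Bag followed by a digit or Cct followed by a digit, and that had at least 20 UMIs over both samples. A UMI (unique molecular identifier) marks 1 captured RNA molecule. The symbol rule matched 87 of the 23679 genes of the count tables, and 72 of them reached the minimum. Dnajc28 entered with 8 UMIs in replicate 1 and 12 in replicate 2, and Hspa12a stayed out with 12 and 2. One match, Hspg2, encodes perlecan, a basement membrane protein that is no chaperone, and it is kept here as a match of the name only.

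The cells were group 3 innate lymphoid cells (ILC3s), sorted from the lamina propria of the small intestine of 18-month-old male C57BL/6 mice and profiled on the BD Rhapsody single-cell system. There was 1 group with 2 replicates, replicate 1 with sample tag 6 and replicate 2 with sample tag 12, each from its own library. The labels give no genotype or treatment and do not say whether the replicates came from separate or pooled animals. The p-values here set differences between cell groups against their spread between these 2 samples, after the overall gap of the samples was taken out. That spread was pooled over all cell groups and its estimate drew on the other genes tested. A small p-value is therefore no measure of how well a single gene repeated over the 2 samples. That spread may be technical. A cell had to have 300 or more detected genes and no more than 25% of its UMIs from mitochondrial genes.

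Chaperones bind unfolded or partly folded proteins and release them in cycles of ATP use. HSP70 proteins hold short stretches of a client, J proteins (the Dnaj genes) bring clients and start the ATP step, and nucleotide exchange factors such as the BAG proteins and the HSP110 proteins let the client go. HSP90, the mitochondrial HSP60 with HSP10, and the ring-shaped CCT complex act on later folding steps, and a separate set works in the endoplasmic reticulum (ER). Heat and other protein-damaging conditions are known to activate the factor HSF1, which binds heat shock elements built from inverted GAA units and raises Hspa1a, Hspa1b, Hsph1, Dnajb1 and related genes within minutes to hours.

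Promoters of members whose levels went together in the same cells (below) are shown first, because heat shock elements are the known control sequence of these genes. RefSeq promoters (GRCm38.p6) were found for 59 of the 72 members, 78 windows in all, and the 250 bases before each start were searched for the letters GAANNTTC and TTCNNGAA, each of which is its own reverse complement, and for the longer GAANNTTCNNGAA and TTCNNGAANNTTC on both strands; the longer letters always contain the shorter ones. Capitals mark the matched letters. Hspa1a and Hspa1b, the neighbouring genes of stress-inducible HSP70 (Hspa1a at chr17:34969190-34972156 and Hspa1b at chr17:34956436-34959238, both on the minus strand, GRCm38), have upstream sequences that differed at 3 of 250 bases, with 1 match each that starts 104 bases before the start. The windows are chr17:34972157-34972406 and chr17:34959239-34959488.
Hspa1a: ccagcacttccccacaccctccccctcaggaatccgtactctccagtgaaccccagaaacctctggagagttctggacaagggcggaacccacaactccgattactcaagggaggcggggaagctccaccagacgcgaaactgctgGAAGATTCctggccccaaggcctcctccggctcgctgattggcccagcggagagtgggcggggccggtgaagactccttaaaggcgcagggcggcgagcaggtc
Hspa1b: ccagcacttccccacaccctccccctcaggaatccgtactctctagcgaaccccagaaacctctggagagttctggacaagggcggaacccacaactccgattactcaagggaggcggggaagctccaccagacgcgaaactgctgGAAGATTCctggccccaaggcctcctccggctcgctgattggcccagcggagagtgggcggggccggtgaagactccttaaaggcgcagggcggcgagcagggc
For other members only 30 bases around the match are printed. Hspe1 (HSP10) and Hspd1 (HSP60) are transcribed away from each other and share the segment chr1:55088053-55088082, given on the plus strand, which holds a longer match and lies within the annotated bounds of Hspd1. The segment of Hsph1, an HSP110 exchange factor, is chr5:149636351-149636380 on the minus strand and reaches into the annotated start of the gene. That of Dnaja1, a cytosolic J protein, is chr4:40722333-40722362 on the plus strand, within the annotated bounds of the gene.
Hspe1: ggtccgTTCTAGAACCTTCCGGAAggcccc
Hsph1: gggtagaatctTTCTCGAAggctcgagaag
Dnaja1: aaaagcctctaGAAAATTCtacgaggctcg
The shorter letters were present in 17 of the 78 member windows (21.8%) and in 12.8% of all 32851 windows of this length. Both Hsph1 windows hold the same match, as do both Dnajb6 windows and those of Hspd1 and Hspe1. The 17 windows are thus not all separate sites. The longer letters were in 4 member windows (5.13%), of Hspd1, Hspe1 and Dnajb6, and in 0.466% of all windows. These 4 windows hold 2 sites, since Hspd1 and Hspe1 share 1 segment and both Dnajb6 windows overlap on the other. The windows of Dnajb1, Bag3 and Hspa5 held no match, and Hspa8, Hsp90aa1 and Hsp90ab1 had no entry. A match is a description of letters and no measurement of binding.

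Levels are given as CPM, UMIs per 1000000 UMIs of the kept cells, not divided by transcript length, with exact 95% Poisson intervals where given, which cover counting error only. The replicates were alike in depth and in summed ILC3 and T cell markers, and differed in stromal, myeloid and some lymphoid markers. After filtering there were 3337 cells with 6939790 UMIs in replicate 1 and 3840 cells with 6810214 UMIs in replicate 2, with medians of 1880 and 1674 UMIs per cell. The 2 libraries had 303 cell index numbers in common, 10 of them among cells of the replicates' own tags; the numbers come from a fixed set of bead labels. Summed ILC3 markers stood at 10265 and 10610 CPM and T cell markers at 2755 and 2418, and cells with a CD3 transcript made up 34.4% and 29.1% of these cells sorted as ILC3s. The median log2 ratio of replicate 2 over replicate 1 was 0.0030 for ILC3 markers, -0.038 for markers of NCR+ ILC3s and -0.14 for T cell markers. It was -0.84 for lymphoid tissue inducer cells, -0.95 for group 2 innate lymphoid cells, -0.52 for NK cells and ILC1s and -0.57 for B and plasma cells. Summed markers of stromal cells stood at 3901 and 108 CPM, and all 7 of them were at least 2-fold lower in replicate 2, as were 7 of 8 myeloid markers (sums of 144 and 37.9). Cells with at least 2 UMIs of the collagen and matrix genes Col1a1, Col1a2, Col3a1 and Dcn, called stromal cells below, made up 492 cells (14.7%) of replicate 1 and 25 (0.651%) of replicate 2. That name rests on these UMIs alone, and in replicate 1 cells of every group given below were among them. With 1 library per replicate, differences between the replicates carry no test.

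Of the 72 members, 5 were at least 2-fold higher in replicate 2, where 1.76% of the 11247 genes with at least 20 UMIs were. These were Hspa1b, Hspa1a, Hsph1, Hspd1 and Hsp90aa1. Another 10 members were 1.5- to 2-fold higher. In the other direction 7 members were at least 2-fold lower in replicate 2, beside 14.0% of all genes, and the remaining 60 were within 2-fold. All members together made up 12404 CPM in replicate 1 and 20725 in replicate 2. The median log2 ratio of replicate 2 over replicate 1 was 0.20 for the members and -0.19 for all these genes. Scaling by trimmed mean of M values (TMM) moved every ratio up by 0.21, which brought the count of members at least 2-fold higher to 10 (3.28% of all genes) and of those at least 2-fold lower to 3 (10.6%).

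**Figure D1:**
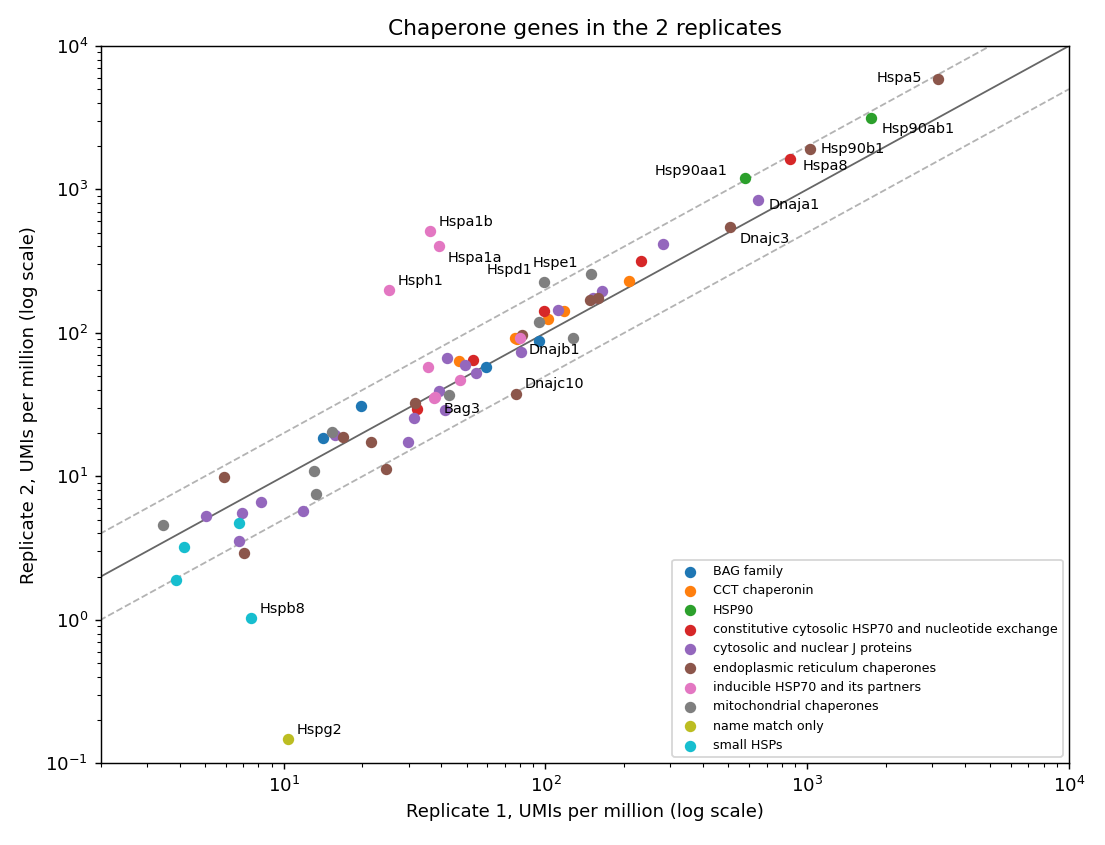
Each point is 1 of the 72 members, with its level in replicate 1 on the x axis and in replicate 2 on the y axis (CPM, both axes log), coloured by role. The solid line marks equal levels and the dashed lines 2-fold differences. Hspa1b, Hspa1a and Hsph1 lie far above the upper dashed line, and Hspb8 and Hspg2 lie below the lower one.

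Inducible HSP70 genes had the largest ratios of replicate 2 over replicate 1 among the members. Hspa1b was at 36.2 CPM (31.8 to 40.9) in replicate 1 and 511.6 (494.7 to 528.9) in replicate 2, and Hspa1a was at 39.1 (34.5 to 44.0) and 402.6 (387.7 to 418.0). Hsph1 stood at 25.2 (21.6 to 29.2) and 197.9 (187.5 to 208.8). Among the 2289 genes with at least 1000 UMIs over both replicates these 3 had the highest ratios of replicate 2 over replicate 1, in the order Hspa1b, Hspa1a, Hsph1. In this class of well-counted genes 5 of 31 members were at least 2-fold higher in replicate 2, beside 2.10% of the genes, and 0 were at least 2-fold lower, beside 1.83%. Hspa1b (251 and 3484 UMIs), Hspa1a (271 and 2742) and Hsph1 (175 and 1348) entered this class only through replicate 2. Genes with as few replicate 1 UMIs and no higher level in replicate 2 could not enter, so ranks and counts in this class are description only. The coding sequences of Hspa1a and Hspa1b, taken as the longest open reading frames, were 99.5% identical and their 3′ untranslated regions 54.6%, so how reads were split between the pair is uncertain. Their sum is used below for levels by cell and group, and values given for Hspa1a or Hspa1b alone rest on that split.

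Other partners of inducible HSP70 were within 2-fold between replicates. Dnajb1, the J protein that works with HSP70 in the stress response, was at 79.7 CPM in replicate 1 and 92.8 in replicate 2. Bag3, the exchange factor that links HSP70 to autophagy, was at 37.8 and 35.7. Dnajb4 stood at 47.0 and 47.1, Hspa2 at 37.5 and 35.1, and Hspa4l, another HSP110 protein, at 35.7 and 57.7. The level of this whole role group was 338 CPM in replicate 1 and 1381 in replicate 2.

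Hspa8, Hspa4 and Hspa13 were higher in replicate 2 by less than 2-fold. Hspa8, the housekeeping HSP70, was at 861.7 and 1622.7 CPM, and Hspa4, an HSP110 exchange factor, at 232 and 316. Hspa13, an HSP70-like protein of microsomes, was at 99.0 and 142. Hspa14, another HSP70 family member, was at 52.9 and 64.5, and Hspbp1, an HSP70 exchange factor, at 32.4 and 29.5. For HSP90, the constitutive form Hsp90ab1 stood at 1752 and 3122 and the inducible form Hsp90aa1 at 576 and 1191. Both HSP90 genes were thus close to the 2-fold line. Among cytosolic J proteins Dnaja1 was at 648 and 845, Dnajb6 at 281 and 413, and Dnajc8, known from splicing complexes, at 164 and 196.

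ER and mitochondrial members split. Hspa5 (BiP), the HSP70 of the ER, was at 3161 CPM in replicate 1 and 5924 in replicate 2, and Hsp90b1 (GRP94), the HSP90 of the ER, at 1027 and 1910. Dnajc3, an ER J protein that also acts on the eIF2α kinases, was nearly level at 508 and 545, and Dnajc10, an ER disulfide reductase with a J domain, was lower in replicate 2, at 77.2 and 37.7. In mitochondria Hspd1 stood at 99.1 and 227.6 and its partner Hspe1 at 149 and 258, while Dnajc15 was at 128 and 92.7. Beside these, the ER stress genes outside the name rule had 2 of 19 members at least 2-fold higher in replicate 2, Ddit3 (31.6 and 79.4) and Trib3 (0.720 and 5.73), and 0 at least 2-fold lower.

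The CCT ring and the BAG proteins were the most even. All 6 CCT subunits among the members were within 2-fold, with Cct2 at 209 and 228, Cct4 at 118 and 141 and Cct5 at 102 and 124 CPM. Bag6 was at 94.4 and 87.5, Bag1 at 59.1 and 58.0, and Bag4 at 19.7 and 30.7. Small heat shock proteins, which hold unfolded clients without ATP, were scarce, with a summed level of 22.3 CPM (18.96 to 26.1) in replicate 1 and 10.9 (8.53 to 13.6) in replicate 2. Hspb8 had 52 UMIs in replicate 1 and 7 in replicate 2, and Hspg2 had 72 and 1, both beside the stromal gap given above. Without stromal cells Hspb8 and Hspg2 were still at least 2-fold lower in replicate 2, but near the floor. Hspg2 stood at 1.26 CPM in replicate 1 and 0 in replicate 2 there, and Hspb8 had at most 7 UMIs in replicate 2. In that setting 5 members were at least 2-fold higher and 7 lower, beside 2.63% and 10.5% of genes.

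Most inducible HSP70 RNA sat in few cells. Hspa1a and Hspa1b together had 522 UMIs (75.2 CPM, 68.9 to 82.0) in replicate 1 and 6226 (914 CPM, 892 to 937) in replicate 2, a ratio of 12.2. At least 1 such UMI was found in 5.09% and 16.8% of cells. After each cell was thinned to 1000 UMIs, which left out 186 and 313 shallower cells, the shares were 2.73% (95% exact binomial interval 2.19 to 3.36) and 12.8% (11.7 to 13.9). Cells with at least 5 UMIs of the pair numbered 26 (0.779%) in replicate 1 and 206 (5.36%) in replicate 2, and the highest single cells held 65 and 156. In thinned cells the ratio of variance to mean (the Fano factor, near 1 for counting noise) was 3.11 and 23.9. No cell type here is known to lack the pair, so the share that free RNA gives was not measured.

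Cells called stromal by their matrix UMIs held most UMIs of the pair in replicate 1, 385 of 522, and few in replicate 2, 79 of 6226. Left out, the other cells stood at 24.6 CPM (20.7 to 29.1) in replicate 1 and 911 (888 to 934) in replicate 2, a ratio of 37.0. This alternative was chosen after seeing the data. Across the planned settings (cell filters, thinning, T-zero cells alone, the mean over cells, TMM) the ratio lay between 11.1 and 20.6.

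The gap was present in each cell group. Cells were called T cells with at least 1 UMI of Cd3d, Cd3e or Cd3g (1149 cells in replicate 1 and 1117 in replicate 2). The others, called T-zero cells, were split into Ncr1 cells (at least 1 UMI of Ncr1, 608 and 438), Ccr6/Cd4 cells (no Ncr1 and at least 1 UMI of Ccr6 or Cd4, 128 and 79) and the rest (1452 and 2206). Of all cells, Ncr1 cells made up 18.2% and 11.4%, Ccr6/Cd4 cells 3.84% and 2.06%, and the rest 43.5% and 57.4%. Cells called stromal were spread over these groups. Leaving them out took T cells of replicate 1 from 1149 to 971 and Ncr1 cells from 608 to 520. Ccr6/Cd4 cells went from 128 to 112 and the rest from 1452 to 1242. What kind of cells they were was not tested. The pair stood at 79.3 and 696 CPM in T cells, 40.4 and 966 in Ncr1 cells, 71.5 and 1539 in Ccr6/Cd4 cells, and 88.7 and 1002 in the rest. Every group of replicate 2 lay above every group of replicate 1. In replicate 2 cells with at least 5 UMIs of the pair made up 4.12% of T cells, 6.16% of Ncr1 cells, 5.06% of Ccr6/Cd4 cells and 5.85% of the rest. T-zero cells with a UMI of Tff2 or Gkn3 were few, 22 and 13, and their level of the pair was 105 (34.0 to 244) and 553 (295 to 946) CPM, beside 72.4 and 1015 in the T-zero cells without. Those intervals are wide, and no test was run on them.

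**Figure D2:**
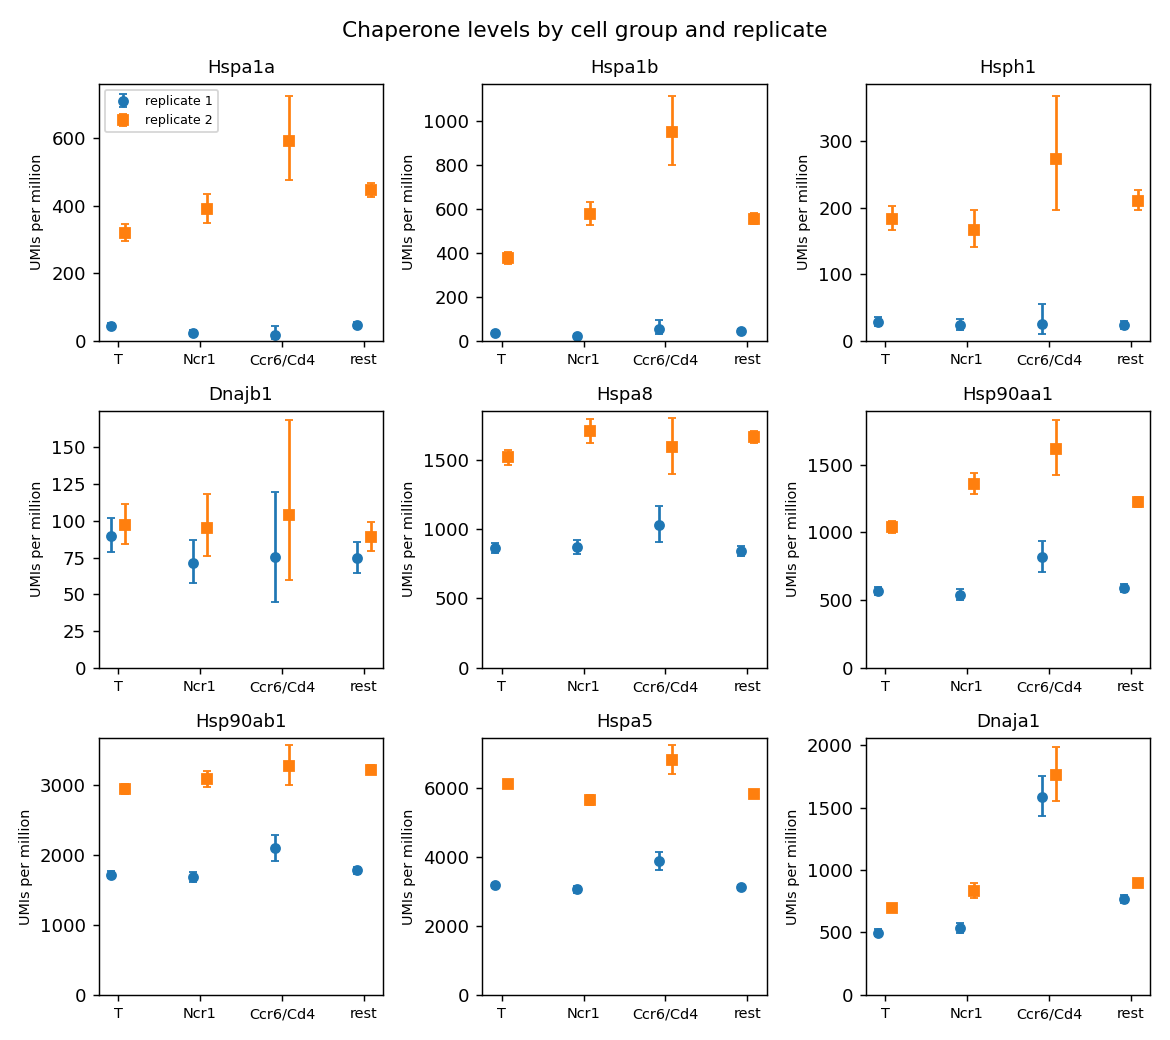
Level (CPM, y axis from 0) of 9 members in the 4 cell groups on the x axis, circles for replicate 1 and squares for replicate 2, with exact 95% Poisson intervals for counting error. Hspa1a, Hspa1b and Hsph1 are higher in replicate 2 in every group, Dnajb1 overlaps between replicates, and Dnaja1 is highest in the Ccr6/Cd4 cells of both replicates.

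Other heat shock genes were high in the same cells as Hspa1a and Hspa1b. Thinned cells with at least 1 UMI of the pair were compared with those without, leaving out stromal cells: 444 and 3059 cells in replicate 2, and 44 and 2647 in replicate 1. In replicate 2, 14 of 56 other members were at least 1.5-fold higher in cells with the pair, beside 11.2% of 7654 genes, and 4 were at least 1.5-fold lower, beside 12.2%. Hsph1 stood at 801.8 CPM with the pair and 102.3 without (7.84-fold), and Dnajb1 at 344.6 and 62.4 (5.52-fold). Hspd1 was 3.99-fold higher, Hsp90aa1 3.58-fold, Hspe1 3.10-fold, Dnaja1 2.79-fold, Bag3 2.70-fold, Hspa8 2.41-fold and Hsp90ab1 2.12-fold. Dnaja4, a J protein known as heat-inducible, stood at 112.6 and 60.5. The 4 lower members, Bag1, Hspbp1, Dnajc11 and Dnajc30, had at most 16 UMIs in the cells with the pair. With stromal cells kept, 15 of 58 members were higher (11.9% of genes) and 4 lower (12.2%). In both replicates at once these were 3 higher (3.58% of genes) and 2 lower (4.49%). Lyz2, a myeloid marker named after its values were seen, had a higher ratio than any member, 36.7-fold from 32 UMIs in the cells with the pair of replicate 2, and had 0 UMIs in those of replicate 1. Its part in the levels of the pair was not tested.

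In replicate 1 few members shared this pattern: 5 of 56 were at least 1.5-fold higher without stromal cells, beside 24.4% of genes, and 3 of 58 with them, beside 19.4%. Only 3 of the 56 members were at least 1.5-fold higher in both replicates (3.50% of genes), namely Dnajb1 (4.73-fold in replicate 1, from 11 UMIs in cells with the pair), Bag3 (2.51-fold, from 3 UMIs) and Dnajc19 (1.99-fold, from 4 UMIs). Hsph1 had 1 UMI in the 44 cells with the pair and Hsp90aa1 stood at 568 CPM with and 573 without. In both replicates 1 member was at least 1.5-fold lower (2.64% of genes). With 44 cells, differences of small genes were not detectable at this depth.

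The levels were graded with the number of Hspa1 UMIs. Non-stromal thinned cells of replicate 2 were binned by 0, 1, 2 to 4, 5 to 9 and 10 or more UMIs of the pair, giving 3059, 213, 81, 56 and 94 cells. Hsph1 stood at 102, 287, 730, 1222 and 1832 CPM from the lowest bin to the highest, and Dnajb1 at 62.4, 146, 223, 431 and 872. Hsp90aa1 went from 907 over 1560, 3008 and 4781 to 6531. Dnaja1 went from 703 to 3816, Hspa8 from 1367 to 5168 and Hspd1 from 164 to 1527. Every step of these series was upward. In contrast Hspa5 stood at 6073, 5860, 5533, 4763 and 3925, lower in each bin, and Hsp90b1 at 1942 in the lowest bin and 1439 in the highest. Among CCT subunits Cct2 was at 217 and 218 in these 2 bins. Cells in a bin come from 1 sample, so the series is a description of that sample.

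**Figure D3:**
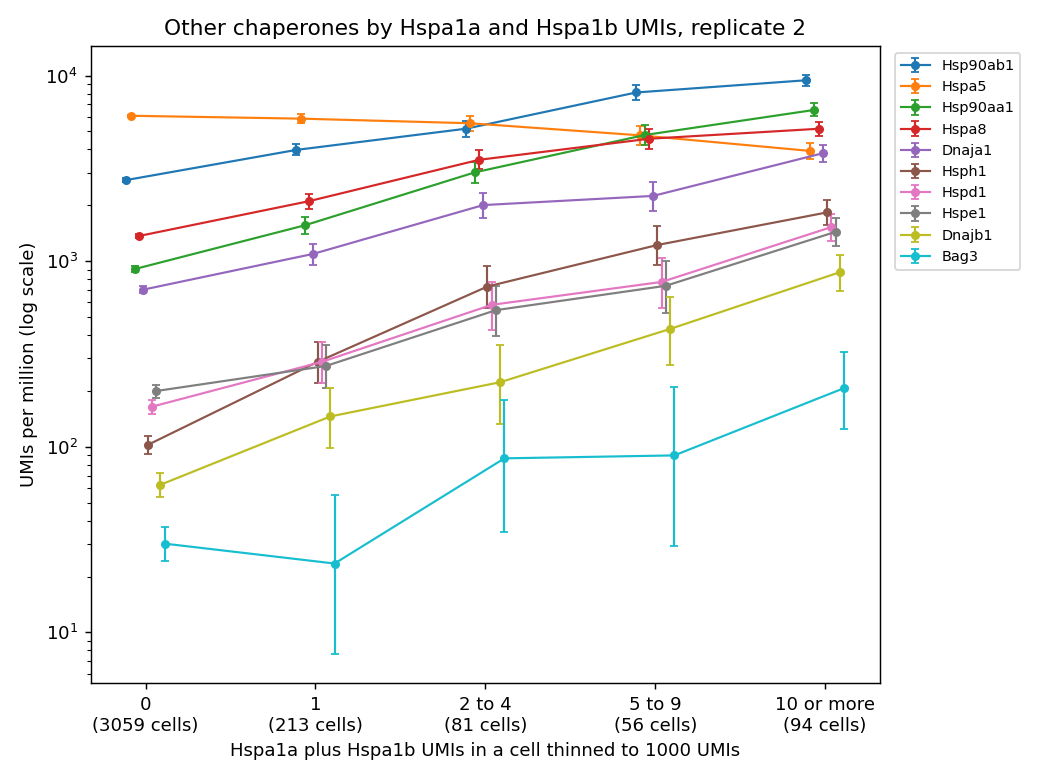
Level (CPM, log y axis) of 10 members in non-stromal cells of replicate 2, thinned to 1000 UMIs and binned on the x axis by their UMIs of Hspa1a plus Hspa1b, with cell numbers under each bin and exact 95% Poisson intervals. Hsph1, Dnajb1, Hspd1, Hspe1, Hspa8, Dnaja1 and both HSP90 genes are higher in each further bin, and Hspa5 is lower.

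Genes outside the name rule split in the same way in replicate 2. Of 22 cochaperones and other heat shock response genes with enough UMIs, 9 were at least 1.5-fold higher in cells with the pair and 0 lower, among them Chordc1, an HSP90 cochaperone (216 and 52.3 CPM, 4.13-fold) and Cacybp (108 and 49.4, 2.19-fold). ER stress genes were 0 higher and 1 lower of 18, prefoldin subunits 0 of 6 either way, oxidative stress genes 0 of 7 and HSF factors with their partners 0 of 3. Immediate early genes, which respond to cell activation and handling, were 8 higher of 20, with Zfp36 at 1768 and 504 (3.51-fold) and Egr1 at 230 and 70.0 (3.28-fold). Between replicates these genes went the other way: their sum was 26970 CPM in replicate 1 and 17965 in replicate 2, and 7 of 22 were at least 2-fold lower in replicate 2. The part of the immediate early genes in the Hspa1 levels was not tested.

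Cells with no UMI of the pair left after thinning still differed between replicates. Some of these cells can have held such a UMI before thinning. In replicates 1 and 2 the shares with the pair were 5.09% and 16.8% before it. They were 2.73% and 12.8% after it, with shallower cells left out. Among non-stromal thinned cells without it, Hsph1 was 4.10-fold higher in replicate 2 (24.9 and 102 CPM), Hsp90b1 2.06-fold (941 and 1942) and Hspa5 1.90-fold. Hspd1 was 1.78-fold higher, Hspa8 1.63-fold, Hsp90aa1 1.58-fold, Hsp90ab1 1.54-fold and Hspe1 1.43-fold. Dnajc10 went the other way, at 0.409-fold (83.9 and 34.3 CPM). Dnajb1 stood at 1.18-fold, Bag3 at 1.11-fold and Dnaja1 at 0.998-fold. Dnaja1 was thus level between replicates in these thinned cells.

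Differences between cell groups were tested within the replicates, on UMI counts summed per replicate and group, with edgeR's quasi-likelihood test, the replicate as a block and Benjamini-Hochberg adjustment over 9637 genes. Of the 72 members 68 had enough counts to be tested. In a fit with no replicate block 0 of the 68 members passed in either comparison below. Of all genes 0.0726% were then higher and 0.0311% lower in the first comparison, and 0.892% and 0.841% in the second. Median UMIs per cell in replicates 1 and 2 were 1991 and 1769 in T cells, 2045 and 1860 in Ncr1 cells, 1629 and 1670 in Ccr6/Cd4 cells, and 1725 and 1579 in the rest.

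Dnaja1 was the only member past the test between Ccr6/Cd4 cells and Ncr1 cells. Ccr6 and Cd4 are known marks of lymphoid tissue inducer cells and Ncr1 of NCR+ ILC3s, but Ncr1 is also found on other lymphocytes. All 5 tested markers of lymphoid tissue inducer cells were higher in the Ccr6/Cd4 cells, while of the NCR markers 1 of 4 (Xcl1) was lower there. Also lower in Ccr6/Cd4 cells were 3 of 7 T cell markers (Trbc1, Trbc2 and Lck), 2 of 6 markers of NK cells and ILC1s (Nkg7 and Klrk1) and 2 of 6 of B and plasma cells (Igha and Jchain). The part of these cell types in the Dnaja1 difference was not tested. Dnaja1 stood at 1589 CPM in Ccr6/Cd4 cells and 537 in Ncr1 cells of replicate 1, and at 1760 and 836 in replicate 2. In both replicates the Ccr6/Cd4 cells were the highest of the 4 groups, since the rest stood at 764.5 and 894.5 and T cells at 498 and 695. The log2 ratio was 1.23 (SE 0.12, edgeR adjusted p = 4.8e-07), with 1.51 in replicate 1 and 0.95 in replicate 2. In this comparison 1 of 68 members was higher, beside 2.19% of genes, and 0 were lower, beside 2.37%. At an unadjusted p under 0.05, edgeR gave 5 members higher and 3 lower, beside 6.56% and 9.39% of genes. DESeq2 gave 2 higher and 0 lower after adjustment, beside 2.24% and 1.42% of genes. The median log2 ratio was -0.12 over the members and -0.10 over all genes.

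Hspa1b came next, with a log2 ratio of 0.74 (SE 0.22, edgeR adjusted p = 0.056). It stood at 54.7 CPM in Ccr6/Cd4 cells and 19.4 in Ncr1 cells of replicate 1 and at 948 and 576.5 in replicate 2. Summed with Hspa1a to 1 feature, an alternative chosen after seeing the data, the pair had a log2 ratio of 0.65 (SE 0.22, edgeR adjusted p = 0.10). Hspa1b passed the test in 5 of the alternative settings, and Hspa5 (log2 ratio 0.21, adjusted p = 0.16) did in 5 as well. Without the stromal cells 3 of 65 members were higher, while the genes higher went from 211 to 288 (3.14%), and Dnaja1 had a log2 ratio of 1.32. Beside this comparison, 4 of 7 stromal markers were lower in Ccr6/Cd4 cells, and the immediate early genes were 6 higher and 1 lower of 22, with Atf3 at a log2 ratio of 0.89 and Fosb at 0.51. Of the cochaperone list only Ier5, an HSF1 regulator, was higher (0.52), and no ER stress, prefoldin or HSF gene passed. The part of the immediate early genes in the Dnaja1 difference was not tested.

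Between T cells and T-zero cells (the mean of the 3 T-zero groups) members went both ways. Of 68 members 5 were higher in T cells, beside 8.81% of genes, and 4 were lower, beside 6.38%, both near or below the background. A T cell gate that also takes cells with a T cell receptor transcript moved most cells into the T group. With it 0 of 51 tested members were higher, beside 3% of 5441 genes, and 1 was lower, beside 1.29%. The median log2 ratio was 0.06 over the members and 0.05 over all genes.

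Dnaja1 was lower in T cells by the widest margin over its error, with a log2 ratio of -0.67 (SE 0.10, edgeR adjusted p = 1.6e-05). The T-zero groups weighed equally in this ratio, so it draws in part on the high Dnaja1 level of the few Ccr6/Cd4 cells given above. T cells were the lowest group in both replicates, nearest to the Ncr1 cells. Dnajc6, auxilin, which uncoats clathrin vesicles, stood at 15.2 CPM in T cells, 41.9 in Ncr1 cells, 21.02 in Ccr6/Cd4 cells and 39.0 in the rest of replicate 1. In replicate 2 these were 8.5, 28.7, 32.5 and 19.3, so that T cells were the lowest group in both, and the log2 ratio was -1.23 (SE 0.28, edgeR adjusted p = 0.0031). With the wider T cell gate it was 0.069 (edgeR adjusted p = 0.97). Hspa13 was lower too, at 77.0 and 107 CPM in T cells, against 108 to 126 in the T-zero groups of replicate 1 and 110 to 160 in those of replicate 2 (log2 ratio -0.44), but did not pass with thinned cells (edgeR adjusted p = 0.17). Hspa1b was lower with a log2 ratio of -0.58, which rests on replicate 2 (-0.76), since replicate 1 alone gave 0.0069. It did not pass with DESeq2 (adjusted p = 0.41), and with the wider T cell gate its ratio was 0.026. The sum of Hspa1a and Hspa1b did not pass either, with a log2 ratio of -0.32 (SE 0.16, edgeR adjusted p = 0.19). Hspa1a did not pass (-0.19, edgeR adjusted p = 0.51), with 0.83 in replicate 1 and -0.47 in replicate 2. Without stromal cells Hspa1a did pass (-0.44, edgeR adjusted p = 0.012), as did Hspa1b (-0.70, edgeR adjusted p = 0.00015).

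The members higher in T cells had log2 ratios of 0.37 to 0.80. Dnajc9, a J protein that escorts histones, stood at 40.4 CPM in T cells of replicate 1 and 36.9 in those of replicate 2, against 21.02 to 33.6 and 19.5 to 21.8 in the T-zero groups (log2 ratio 0.80, SE 0.21, edgeR adjusted p = 0.010). Hspbp1, an HSP70 exchange factor, was at 39.6 and 39.7 against 16.8 to 29.9 and 23.7 to 29.9 (0.75). The Ccr6/Cd4 cells held 237874 and 153949 UMIs in all, so their values for scarce genes such as Dnajc6, Dnajc9 and Hspbp1 rest on few counts. Dnaja2, a cytosolic J protein, stood at 126 and 163 CPM in T cells, against 84.1 to 106 and 77.9 to 153 (0.48). Cct2, a subunit of the CCT ring, stood at 248.5 and 262 in T cells, against 183 to 186 and 208 to 240 (0.39). Hspe1 had 0.37, with 0.60 in replicate 1 and 0.16 in replicate 2, where Ccr6/Cd4 cells (305 CPM) lay above T cells (274). DESeq2 did not call Dnajc9 (adjusted p = 0.076), Hspbp1 (0.12) or Hspe1 (0.12). Hspbp1 did not pass with the stricter cell filter either (edgeR adjusted p = 0.076), nor Hspe1 with thinned cells (0.061). Beside this comparison 6 of 7 stromal markers were higher in T cells, together with Serpinh1, the collagen chaperone of the cochaperone list (log2 ratio 0.81), and without stromal cells each of the 9 members passed the test with the same direction. Among ER stress genes Edem1 was higher (0.62) and Herpud1 lower (-0.31), and the immediate early genes were 4 higher and 9 lower of 22, with Atf3 at -1.31 and Nr4a1 at -0.76.

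**Figure D4:**
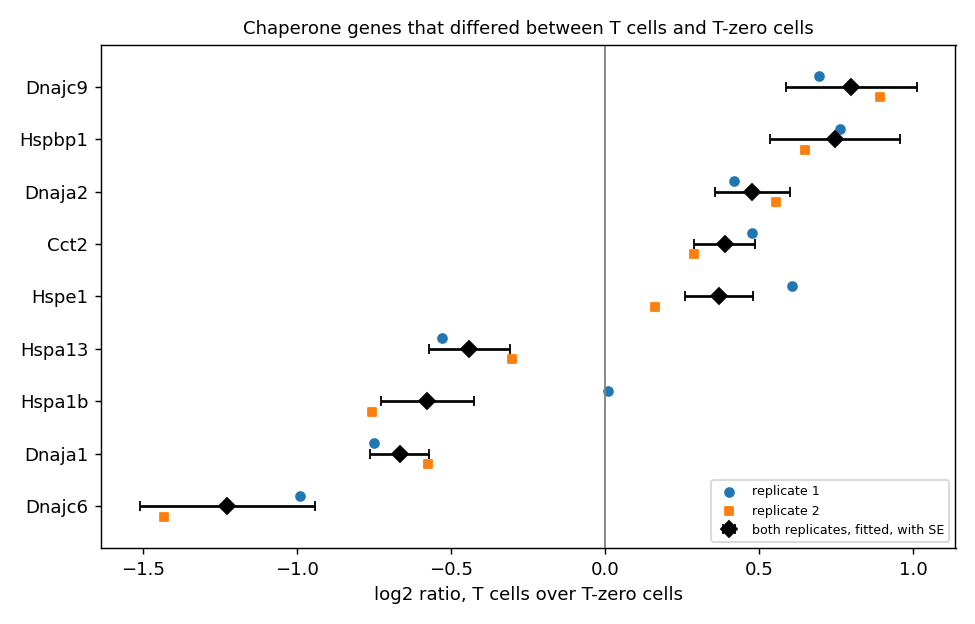
Log2 ratio of T cells over T-zero cells on the x axis for the 9 members past an adjusted p of 0.05. Diamonds with bars are the fitted ratios with their SE, circles replicate 1 alone and squares replicate 2 alone. The ratio of Hspa1b in replicate 1 is at 0.0069, and the other 8 have the same sign in both replicates.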

How the data were processed

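Single-cell RNA was counted in 2 samples of 1 group. Per the file headers, the deposited UMI counts came from version 1.8 of the BD WTA Rhapsody pipeline on GRCm38 with GENCODE M19, corrected for sequencing errors and not normalised. The submitters' processing notes also name mm10, HISAT2 2.0.5 and Bowtie2. A further deposited file, per its header, gives the sample tag call of each cell, a category rather than a measurement. Cells of tag 6 and tag 12 were used, and cells of other tags, multiplets (572 and 987) and undetermined cells were left out. No further doublet caller was run. Members, lists and rules were chosen with earlier results of these data known. Named by rule were the 3 members with the most UMIs in each role and up to 10 past an adjusted p of 0.05 in each contrast. So were up to 10 with at least 100 UMIs and the widest replicate difference, and up to 3 genes of each companion list. Dnajb1, Dnajb4, Bag3, Hspa2, Hspa4l, Hspa14 and Dnajc28 were named outside these rules. Dnaja4, Dnajc19 and the lower members of the cell split were named after their values were seen. One gene of the companion lists is not reported here.

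Counts were summed per replicate and cell group and fitted with edgeR 4.0.16 (R 4.3.3; TMM, filterByExpr, Benjamini-Hochberg at 0.05). The replicate was a block because the 4 groups of a replicate come from 1 library. Alternatives were DESeq2 1.42.0, other filters, gates and scalings. The fit was tested on simulated data. Gene positions are from GENCODE M21.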

Additional observations from a re-analysis of the deposited data

How the results depend on the processing

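With 2 libraries of 1 group the depth and the number of samples limit what can be seen. Family levels (11 values, 7 settings each) moved by less than 1 SD between replicates in every setting run, but this SD over 2 libraries is wide. Without stromal cells the mean level of Hspg2 went from 5.26 to 0.629 CPM and the ratio of the Hspa1 pair between replicates from 12.2 to 37.0. Without the replicate block 0 of 68 members passed in either contrast. Genes higher and lower numbered 7 and 3 (0.0726% and 0.0311%) for Ccr6/Cd4 cells minus Ncr1 cells. For T cells minus T-zero cells they numbered 86 and 81 (0.892% and 0.841%). The cause was not tested. The gate that also uses T cell receptor genes put 2919 and 3273 cells into the T group. Under it the genes higher and lower numbered 79 and 75 of 5441 in the first contrast (1.45% and 1.38%). In the second they numbered 163 and 70 (3% and 1.29%), with 0 of 51 members higher and 1 lower. There the ratios of Dnajc6 and Hspa1b turned to 0.069 and 0.026. DESeq2 gave 137 genes lower (1.42%) in the first contrast, and 501 genes (5.2%) and 2 of 68 members higher in the second. In the first contrast, members higher numbered 3 of 68 with RLE size factors (2.5% of genes) and 3 of 72 with no filter on low counts (1.28%). They numbered 3 of 66 with the stricter cell filter (2.5%) and 3 of 65 without stromal cells (3.14%). With DESeq2 (2.24%) and Ccr6 alone (2.21%) 2 of 68 were higher. The looser cell filter gave 2 of 69 (2.21%) and the T cell receptor gate 2 of 51 (1.45%). With thinned cells 1 of 60 members was lower (2.19%). Dnaja1 was past the threshold in all settings but the fit with no replicate block (adjusted p = 0.25). With 1 replicate left out no test remains; the ratio of Dnaja1 was then 0.95 and 1.51 and that of Hspa1b in T cells -0.76 and 0.0069, so its direction rests on replicate 2. The count of members at least 2-fold apart between replicates was 5 higher and 7 lower in CPM (1.76% and 14% of genes). With TMM scaling it was 10 and 3 (3.28% and 10.6%).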
